A study of Mus musculus with 8 samples.

Results

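The genes described here are 9 genes of creatine metabolism and calcium cycling, measured in translating RNA of cells that express UCP1, the mitochondrial uncoupling protein of brown and beige adipocytes. They were chosen by symbol, as Ckb, Ckmt1, Ckmt2, Gatm, Gamt, Slc6a8, Alpl, Atp2a2 and Ryr2, from a list drawn up with the depot levels of these same libraries known, and all 9 were found among the 22552 gene symbols of the files. Of these, 7 concern creatine, and Atp2a2 and Ryr2 concern calcium. Their levels by depot are therefore a description. Whether the fit over all genes called a member is given beside its values, with no p-value, and nothing is read from it. All mice were females of 6 weeks with the strain label C57B/6 UCP1-TRAP, bred at 30 °C, weaned at 3 weeks to room temperature and kept at 4 °C for 2 weeks from week 4. Every group thus carried the same transgene and the same cold exposure, and no library of mice kept warm, of unbound RNA or of UCP1-negative cells was analysed here. TRAP is translating ribosome affinity purification, in which tagged ribosomes of one cell type are pulled down with their mRNA, here with a rabbit antibody to GFP. The labels name the line and describe its transgene no further. The groups were inguinal white adipose tissue (inguinal WAT, 3 libraries), perigonadal white adipose tissue (perigonadal WAT, 2 libraries) and brown adipose tissue (BAT, 3 libraries), and the title of the series concerns a smooth muscle-like origin of beige adipocytes, the UCP1-positive cells of white fat. The labels do not say whether a library came from a single mouse or a pool, so the spread between libraries may be technical in part.

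Besides uncoupling, other routes can spend ATP as heat in fat, and creatine cycling and calcium cycling are among them. In creatine cycling, creatine kinases move a phosphate from ATP to creatine and a phosphatase removes it again, while Gatm and Gamt make creatine and Slc6a8 carries it into the cell. In calcium cycling, the pump SERCA uses ATP to fill the endoplasmic reticulum with calcium, and release channels let it out. Both routes have been described in beige and brown adipocytes.

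The depth of the libraries limits what can be said of the low members. Listed transcripts held an estimated 250450 fragments (inguinal replicate 3) to 1124276 (perigonadal replicate 1), and 5859 to 9548 genes reached 1 FPKM, that is 1 fragment per kilobase of transcript per unit of library size as the authors' program scaled it. These same 2 libraries had the lowest and the highest total FPKM, 75924.9 and 206549.1, so a difference between libraries common to most genes runs through the deposited scale. Over all 8958 tested genes the median difference in log2(FPKM + 1) was 0.03 between inguinal WAT and BAT, 0.52 between perigonadal WAT and BAT and -0.50 between inguinal and perigonadal WAT. Each member is therefore also given after median-ratio scaling. This scaling divides a library by its median ratio to the geometric mean of all 8 libraries, over the 8577 genes above 0 in each. That ratio was 0.545 in inguinal replicate 3 and 1.83 in perigonadal replicate 1. It was 1.14 to 1.21 in the other white fat libraries and 0.886 to 0.927 in BAT. Ucp1 was between 592 and 1593 FPKM and Adipoq, the adipocyte hormone adiponectin, between 126 and 417 FPKM in all 8 libraries.

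The members spanned a wide range of levels on the length-scaled FPKM measure. Atp2a2 had the highest mean over the 8 libraries, 28.3 FPKM, followed by Ckb with 8.13, Alpl with 3.40, Slc6a8 with 1.19 and Gamt with 0.713 FPKM. Ckmt1 had a mean of 0.272, Ryr2 of 0.0784 and Gatm of 0.0603 FPKM, and Ckmt2 was listed at 0 in every library, as were 7296 genes of the files. By mean level Atp2a2 was at rank 761 and Ckb at rank 2283 of all genes. Of the 9, 5 members, Atp2a2, Ckb, Alpl, Slc6a8 and Gamt, reached 1 FPKM in at least 2 libraries and entered the fit over all genes, and the other 4 did not. Gamt reached that level in 3 libraries, all from white fat, so it passed only through the depots in which it was higher.

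**Figure D1:**
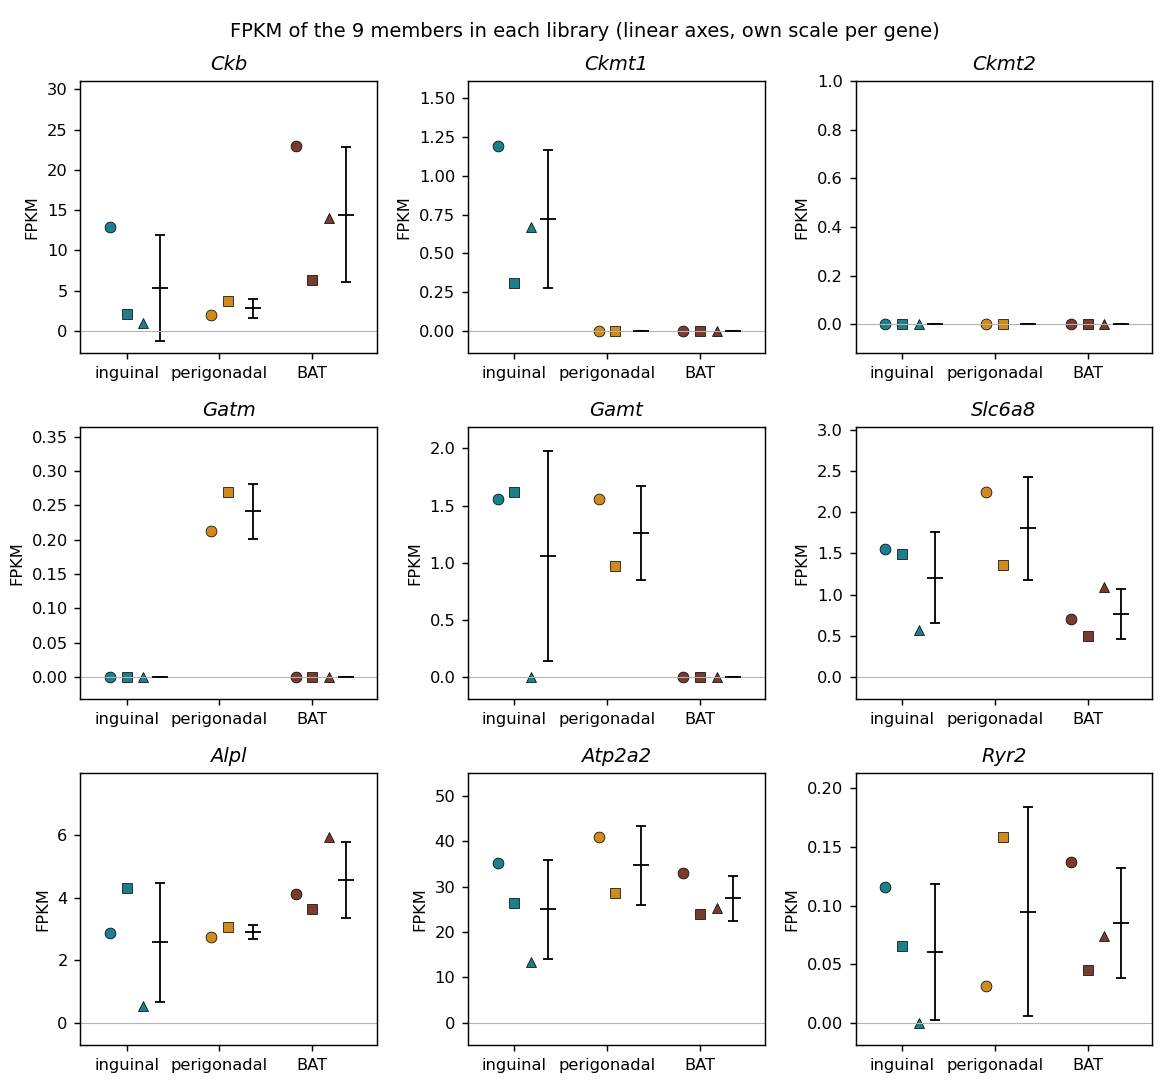
FPKM of each of the 9 members (vertical axis, linear, own scale per gene) in each library by depot, with circle, square and triangle for replicates 1, 2 and 3 and a black bar for the mean ± SD of the group. Ckb stands highest in BAT, Ckmt1 lies above 0 only in the inguinal libraries, Gamt is at 0 in all BAT libraries and Ckmt2 is at 0 everywhere.

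Among the creatine kinases, the cytosolic brain-type enzyme Ckb (chr12:112907566-112910549, mm9, minus strand) was the abundant one. Its level was 23.0, 6.28 and 14.1 FPKM in BAT replicates 1, 2 and 3. It was 12.9, 2.08 and 1.04 FPKM in inguinal replicates 1, 2 and 3, and 2.02 and 3.67 FPKM in perigonadal replicates 1 and 2. Both perigonadal libraries lay below all 3 BAT libraries, while inguinal replicate 1 lay above BAT replicate 2, so inguinal WAT and BAT overlapped. How many of all tested genes had perigonadal and BAT libraries apart in this way was not counted. Nothing is therefore read from such a separation, here or for the genes below. The group means were 14.4 ± 8.36 in BAT (SD, n = 3), 5.33 ± 6.55 in inguinal WAT (SD, n = 3) and 2.85 ± 1.17 FPKM in perigonadal WAT (SD, n = 2), and the 2 white depots did not differ beyond their spread. These levels rest on 75, 23 and 53 fragments in BAT, on 50, 8 and 4 in inguinal WAT and on 10 and 15 in perigonadal WAT. The exact Poisson 95% interval of the smallest of these numbers, 4 fragments, runs from 1.09 to 10.24, and that of the largest, 75, from 59.0 to 94.0; such intervals cover counting error only. Since the cells of a depot were not counted, fewer cells of a type and less RNA per cell cannot be told apart in any of these levels.

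On the log2(FPKM + 1) scale Ckb was lower than in BAT by a difference of -1.64 (SE 0.46) in inguinal WAT and of -1.88 (SE 0.51) in perigonadal WAT. After median-ratio scaling these differences were -1.73 (SE 0.57) and -2.35 (SE 0.63). In the limma fit with Benjamini-Hochberg adjustment over all genes, 1 of the 5 tested members, Ckb, was called in inguinal WAT against BAT, where 2.2% of all tested genes were called in either direction. In perigonadal WAT against BAT 1 member, again Ckb, was called, where 5.18% of all tested genes were, and in inguinal WAT against perigonadal WAT no member was, where 0.703% were. Since the list was selected on these contrasts, nothing is read from these counts. They also share the BAT libraries. Ckb was not called in either contrast after median-ratio scaling. Its difference between inguinal WAT and BAT was no longer called without inguinal replicate 2 (-1.38), inguinal replicate 3 (-1.08), BAT replicate 1 (-1.24) or BAT replicate 3 (-1.58). Between perigonadal WAT and BAT it was no longer called without perigonadal replicate 1 (-1.56) or BAT replicate 1 (-1.48).

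Markers of other cell types differed beside Ckb, which many cell types express. The summed level of 9 smooth muscle markers was 138, 66.5 and 43.1 FPKM in inguinal replicates 1, 2 and 3, so the inguinal library with the most Ckb also had the most of these. It was 9.03 to 16.9 in perigonadal WAT, with 1 marker (Lmod1) at 0, and 7.46 to 8.53 FPKM in BAT, with 3 of 9 (Tagln, Smtn and Lmod1) at 0. The part of smooth muscle RNA in the inguinal level of Ckb was not tested. Of 6 markers of nerve and Schwann cells, Tubb3, Syt1 and Th were at 0 in all 8 libraries, and S100b made up most of the summed level. That sum was 17.8, 25.9 and 27.0 FPKM in BAT replicates 1, 2 and 3 and 20.8, 12.1 and 5.50 in inguinal replicates 1, 2 and 3. It was 10.9 and 17.4 in perigonadal replicates 1 and 2. As for Ckb, its highest mean was in BAT and its highest inguinal library was replicate 1, but the higher mean in BAT rests on S100b. Sox10 was at 0 in every BAT library, at 3.85, 1.07 and 0.411 FPKM in the inguinal and at 0 and 0.108 in the perigonadal libraries. Snap25 was at most 0.332 FPKM in BAT and reached 0.725 in perigonadal replicate 1. The summed level of 7 brown and beige adipocyte markers was 3961 to 5014 FPKM in BAT, above the 1414 to 3161 of inguinal WAT and the 3129 to 3393 of perigonadal WAT. That of 9 general adipocyte markers was 3529 to 4225 in BAT, 2985 to 5824 in inguinal WAT and 6097 to 9630 FPKM in perigonadal WAT. That of 8 macrophage markers was 3.53 to 7.37, 4.29 to 6.09 and 5.57 to 11.6 FPKM in the same order, with 1, 3 and 0 of the markers at 0 in all libraries of the depot. The part of these cells in the level of Ckb was not tested. All marker sums, here and below, are on the deposited scale. Between perigonadal WAT and BAT the median log2(FPKM + 1) difference of the 9 adipocyte markers was 1.05 as deposited and 0.37 after scaling. For the 7 brown and beige markers it was 0.0007 and -0.68.

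The upstream sequence of Ckb is shown because Ckb lay farthest from BAT among the tested members on the log2(FPKM + 1) scale. Of the 9 members, 7 had at least 1 promoter window in the RefSeq table of build GRCm38.p6, which spans 250 bases before to 50 after a gene's start, with 9 windows in all. The 250 bases before the Ckb start are printed 5′ to 3′ on the minus strand, chr12:111672339-111672588 (GRCm38.p6), with a TATA box in capitals.
Ckb upstream: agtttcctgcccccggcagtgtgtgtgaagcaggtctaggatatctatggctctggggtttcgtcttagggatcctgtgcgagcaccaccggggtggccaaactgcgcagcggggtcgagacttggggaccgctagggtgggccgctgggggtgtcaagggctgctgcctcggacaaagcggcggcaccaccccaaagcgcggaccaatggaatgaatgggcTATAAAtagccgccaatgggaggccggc
The 6 capitals begin 28 bases before the start. TATAAA, searched on both strands, was in 3 of the members' 9 windows, those being windows of Ckb, Alpl and Ckmt1, and in 13.6% of all 32851 windows. The E-box CANNTG was in 7 of the 9 and in 72.3% of all windows. The estrogen-related receptor half-site TCAAGGTCA and the cAMP response element TGACGTCA were in none of the 9, against 0.423% and 1.79% of all windows. These are matches of letters in a short window and no measure of binding.

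The mitochondrial creatine kinases were at or near 0. Ckmt1 (chr2:121184377-121189473, mm9, plus strand), the ubiquitous mitochondrial enzyme, was at 1.19, 0.308 and 0.673 FPKM in inguinal replicates 1, 2 and 3, from 4, 1 and 2 fragments, and was listed at 0 in both perigonadal and all 3 BAT libraries. With 7 fragments in all (exact Poisson 95% interval 2.81 to 14.4), the inguinal mean was 0.725 ± 0.444 FPKM (SD, n = 3). It was 2.07-fold the floor of BAT and 1.77-fold that of perigonadal WAT, taking 3 fragments over the group as the floor of a group at 0. The interval of a group at 0 runs from 0 to 3.69 fragments and overlaps the inguinal one, so these ratios are not lower bounds. Ckmt1 overlaps the end of a gene on the opposite strand, Strc, and whether the authors' counting used strand is not given in the sources used here. The depots with and without Ckmt1 fragments also differed in markers of mammary epithelium. All 12 such markers were above 0 in inguinal WAT, with a summed level of 123 to 159 FPKM, against 10 of 12 and 44.6 to 101 FPKM in perigonadal WAT. In BAT 2 of 12, Csn3 and Trf, were above 0, with a sum of 9.25 to 22.7 FPKM, and Krt8, Krt18, Krt19, Krt5, Krt14, Epcam and Cdh1 were all at 0. The median log2(FPKM + 1) difference of the 12 from BAT was 2.40 in inguinal WAT and 0.20 in perigonadal WAT. Over all tested genes these medians were 0.03 and 0.52. The part of epithelial RNA in the Ckmt1 level was not tested. Ckmt2 (chr13:91992992-92016490, mm9, minus strand), the sarcomeric mitochondrial enzyme of muscle, was listed at 0 in all 8 libraries, which allows up to 0.374 FPKM in BAT, 0.349 in inguinal WAT and 0.437 in perigonadal WAT at 3 fragments a group.

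The enzymes of creatine synthesis were also low. Gatm (chr2:122420209-122437013, mm9, minus strand), which makes the precursor guanidinoacetate, was at 0.213 and 0.270 FPKM in perigonadal replicates 1 and 2, from 1 fragment each, and at 0 in the other 6 libraries. A depot difference in Gatm was not detectable at this depth. Gamt (chr10:79720896-79723713, mm9, minus strand), which methylates guanidinoacetate to creatine, was at 1.56, 1.62 and 0 FPKM in inguinal replicates 1, 2 and 3 and at 1.55 and 0.972 FPKM in perigonadal replicates 1 and 2. It was listed at 0 in all 3 BAT libraries. The perigonadal libraries did not overlap those of BAT, from which nothing is read, while inguinal replicate 3 shared the 0 of BAT. Each white depot gave 6 Gamt fragments in all (exact Poisson 95% interval 2.20 to 13.1). Its mean was 1.80-fold the BAT floor of 0.589 FPKM in inguinal WAT and 2.15-fold in perigonadal WAT. These ratios are not lower bounds, since the interval of BAT, 0 to 3.69 fragments, overlaps those of the white depots. The log2(FPKM + 1) difference from BAT was 0.92 (SE 0.38) in inguinal WAT and 1.17 (SE 0.42) in perigonadal WAT, or 0.82 (SE 0.35) and 0.88 (SE 0.39) after scaling, and neither was called on either scale. Without inguinal replicate 3 both were called, at 1.37 (SE 0.33) and 1.17 (SE 0.33), where 336 and 1326 of all 8929 tested genes were called. The perigonadal difference was also called in a fit of only those 2 depots, where 956 of 8944 genes were. Gamt entered these fits only through white fat, so nothing is read from these calls. The 2 white depots were within their spread of each other, at 1.06 ± 0.918 (SD, n = 3) and 1.26 ± 0.411 FPKM (SD, n = 2).

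Slc6a8 (chrX:70918472-70927839, mm9, plus strand), the creatine transporter of the plasma membrane, was found in every library at a low level. It was at 1.56, 1.496 and 0.564 FPKM in inguinal replicates 1, 2 and 3, at 2.25 and 1.36 in perigonadal replicates 1 and 2, and at 0.707, 0.498 and 1.09 in BAT replicates 1, 2 and 3. As deposited, perigonadal WAT lay above all BAT libraries, and inguinal WAT overlapped both other depots. After scaling perigonadal WAT, at 1.228 and 1.185, overlapped BAT, where replicate 3 was at 1.231. The perigonadal difference from BAT was 0.67 (SE 0.42) on the log2(FPKM + 1) scale as deposited and 0.27 (SE 0.26) after scaling. For inguinal WAT against BAT it was 0.30 (SE 0.37) and 0.27 (SE 0.23), and neither contrast was called. The order perigonadal WAT, inguinal WAT, BAT therefore had no pair of neighbours apart beyond their spread. The files list 3 nearly equal transcripts of Slc6a8, of 3955, 3964 and 3979 nt. The authors' program gave nearly all of the level in inguinal replicate 2 to another of them than in the other 7 libraries, so only the sum is used here.

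Alpl (chr4:137297647-137352292, mm9, minus strand), the tissue-nonspecific alkaline phosphatase that can remove the phosphate of phosphocreatine, was at 4.11, 3.65 and 5.92 FPKM in BAT replicates 1, 2 and 3. It was at 2.88, 4.30 and 0.542 in inguinal replicates 1, 2 and 3 and at 2.73 and 3.07 FPKM in perigonadal replicates 1 and 2. Both perigonadal libraries lay below all BAT libraries, whereas inguinal replicate 2 lay above BAT replicates 1 and 2. The values rest on 21, 21 and 34 fragments in BAT, on 17, 25 and 3 in inguinal WAT and on 21 and 19 in perigonadal WAT. The log2(FPKM + 1) difference from BAT was -0.79 (SE 0.41) for inguinal WAT and -0.49 (SE 0.45) for perigonadal WAT, and -0.90 (SE 0.32) and -0.98 (SE 0.36) after scaling. None of these was called. Ckb and Alpl, the kinase and the phosphatase of the cycle, both had their highest mean in BAT. Gamt and Slc6a8 had theirs in perigonadal WAT as deposited, whereas on the scaled measure the means of inguinal and perigonadal WAT were 0.903 and 0.846 for Gamt and 1.211 and 1.206 for Slc6a8.

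**Figure D2:**
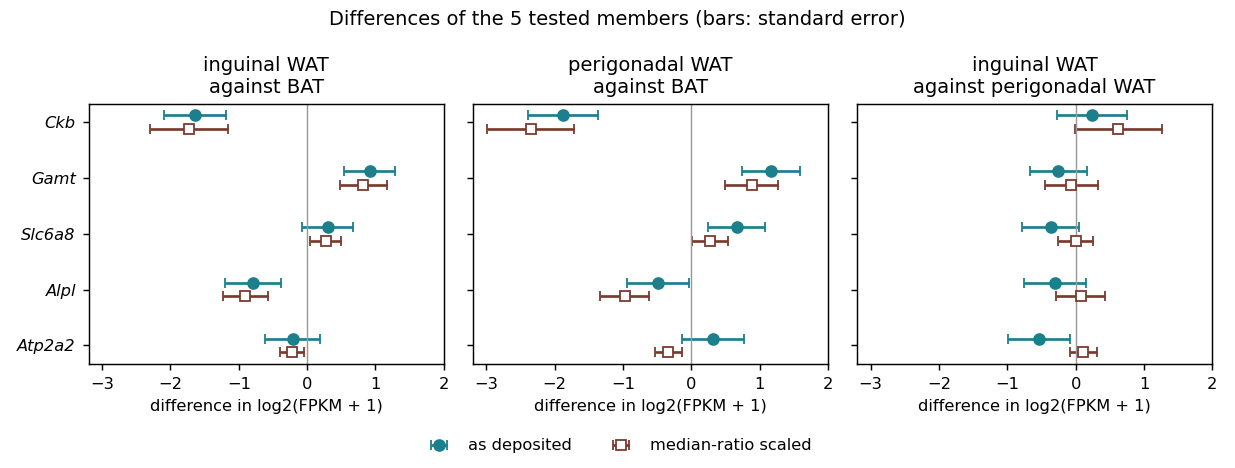
Differences in log2(FPKM + 1) with standard errors (horizontal axis) of the 5 tested members in the 3 comparisons, as deposited (filled circles) and after median-ratio scaling (open squares). Ckb lies farthest from 0 against BAT, at -1.64 and -1.88 as deposited, and Atp2a2 changes sides in perigonadal WAT against BAT, from 0.32 to -0.34.

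Atp2a2 (chr5:122903522-122952234, mm9, minus strand), which encodes the calcium pump SERCA2, was the most abundant member in each of the 3 depots by mean. It was at 35.2, 26.4 and 13.4 FPKM in inguinal replicates 1, 2 and 3, at 40.8 and 28.6 in perigonadal replicates 1 and 2, and at 33.0, 24.0 and 25.2 in BAT replicates 1, 2 and 3. The 3 depots overlapped, with means of 25.02 ± 10.9 in inguinal WAT (SD, n = 3), 34.7 ± 8.68 in perigonadal WAT (SD, n = 2) and 27.4 ± 4.86 FPKM in BAT (SD, n = 3). As deposited, the log2(FPKM + 1) difference from BAT was -0.21 (SE 0.40) for inguinal WAT and 0.32 (SE 0.45) for perigonadal WAT. After scaling both were below 0, at -0.22 (SE 0.17) and -0.34 (SE 0.20), so the direction for perigonadal WAT depended on the scale. Inguinal replicate 3, at 13.4 FPKM the lowest as deposited, was at 24.7 on the scaled measure, where all 8 libraries lay between 22.3 and 35.6.

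SERCA2 has 2 main forms that share all but the end of the protein. SERCA2a, the short form known from heart and slow muscle, and SERCA2b, the long form of most other cells, differ by the splicing of the last coding exons. The ends of their coding sequences are shown because this is where the 2 proteins part, 5′ to 3′ on the minus strand of build GRCm38 (GENCODE M21), with the last 12 shared bases in lower case and the bases of one form, stop codon included, in capitals.
SERCA2a end: tggaacaacccgCAATACTGGAGTAA
SERCA2b end: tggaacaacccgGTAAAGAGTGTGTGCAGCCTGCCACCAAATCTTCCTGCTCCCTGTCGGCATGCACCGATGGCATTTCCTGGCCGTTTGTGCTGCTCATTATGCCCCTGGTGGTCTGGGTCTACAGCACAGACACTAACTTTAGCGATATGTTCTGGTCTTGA
The capitals are the 14 bases at chr5:122454291-122454304 for SERCA2a and the 152 bases at chr5:122457151-122457302 for SERCA2b, after 2983 shared coding bases. The proteins are 998 and 1044 residues long. The transcripts, of 4315 and 4502 nt, also differ in untranslated sequence.

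Transcripts of both forms were given reads in most libraries. SERCA2b was at 15.1, 10.46 and 2.23 FPKM in inguinal replicates 1, 2 and 3, at 19.5 and 11.2 in perigonadal replicates 1 and 2, and at 17.5, 7.72 and 0.000528 in BAT replicates 1, 2 and 3. SERCA2a was at 10.4, 3.47 and 2.68 FPKM in the inguinal, at 3.06 and 7.60 in the perigonadal and at 5.79, 7.92 and 10.1 in the BAT libraries in the same order. SERCA2b made up 59.3, 75.1 and 45.4 percent of the 2 coding forms in inguinal WAT, 86.4 and 59.6 percent in perigonadal WAT, and 75.2, 49.4 and 0.00524 percent in BAT. The BAT libraries alone spanned nearly the whole range. The mean share of SERCA2b was 18.4 percentage points higher in inguinal WAT than in BAT (exact permutation test, two-sided, p = 0.7, adjusted over the 3 comparisons p = 0.7), where 3 against 3 libraries cannot go below 0.1. It was 31.5 points higher in perigonadal WAT than in BAT (exact permutation test, p = 0.4, adjusted p = 0.6), where 2 against 3 cannot go below 0.2, and inguinal WAT differed from perigonadal WAT by -13.1 points (exact permutation test, p = 0.4, adjusted p = 0.6). The third, non-coding transcript took 8.38 to 18.3 FPKM, and in BAT replicate 3 the 15.1 FPKM of it and the near 0 of SERCA2b came from the same division of reads. The division between transcripts that share most of their sequence is an estimate of the authors' program, so the level of the gene is firmer than that of a form.

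**Figure D3:**
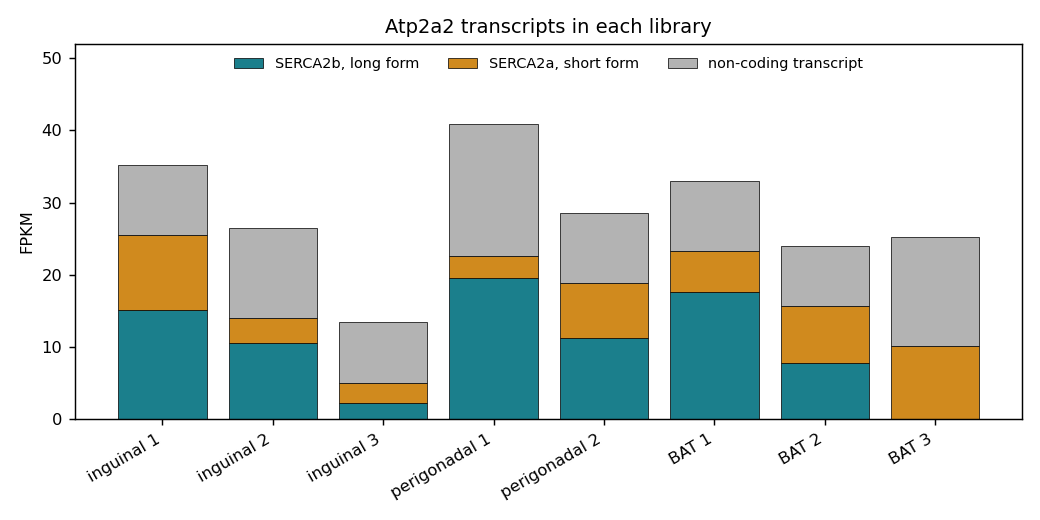
FPKM of the 3 Atp2a2 transcripts (stacked bars, vertical axis from 0) in each of the 8 libraries. The total lies between 13.4 and 40.8 FPKM, and the SERCA2b part runs from 19.5 in perigonadal replicate 1 to near 0 in BAT replicate 3.

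Ryr2 (chr13:11645370-12199212, mm9, minus strand), the large calcium release channel best known from heart, was near 0 in every depot. It was at 0.115, 0.0657 and 4.67e-05 FPKM in inguinal replicates 1, 2 and 3, at 0.0316 and 0.158 in perigonadal replicates 1 and 2, and at 0.137, 0.0453 and 0.0740 in BAT replicates 1, 2 and 3. The highest and the lowest value of the 5 white fat libraries enclosed all BAT libraries. Its transcript is 16813 nt long, and even so all 8 libraries together gave an estimated 17.5 fragments, so no depot difference was detectable. Defining markers of heart were at or near 0 beside Atp2a2 and Ryr2: all 9 were at 0 in BAT, and in either white depot 8 of 9 were, with a summed level of at most 0.492 FPKM. Of 18 skeletal muscle markers, 11 were above 0 in BAT, 6 in inguinal WAT and 9 in perigonadal WAT. Their summed level was 15.1 to 24.0, 11.9 to 18.0 and 11.3 to 26.3 FPKM in that order, of which Myl1 alone made up between 9.73 and 24.3 FPKM per library. Another of these markers, Mb, was at 0 in inguinal WAT and reached 7.75 FPKM over the 8 libraries. Atp2a1, the SERCA pump of fast skeletal muscle, was at 0 in BAT and inguinal WAT but not throughout perigonadal WAT.

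Genes whose profiles over the 8 libraries lay nearest to a member were found by the root mean square difference of log2(FPKM + 1), each gene centred on its own mean, among 3098 tested genes with a mean of at least 5 FPKM. Nearest to Atp2a2 were Chchd3, at 0.066, and Dhx9, at 0.089, where the median gene was at 0.33. Nearest to Slc6a8 were Hspa9 at 0.094 and Ppme1 at 0.097, with a median of 0.37. The nearest genes to Gamt were Chmp5 and Dhx15, both at 0.17 against a median of 0.52. For Alpl they were Tnfrsf12a at 0.17 and Hist1h4j at 0.19, against 0.58. Ckb had no gene as near as the other members had. Its nearest were Apoc1, at 0.50, and Id2, at 0.58, against a median of 1.25. This distance grows with a member's own spread over the libraries, so a farther nearest gene does not show that Ckb lacks genes like it. All distances were taken on the deposited scale, which carries the difference between libraries common to most genes. Apoc1 was at 609, 416 and 493 FPKM in BAT, at 320, 184 and 104 in inguinal WAT and at 146 and 213 FPKM in perigonadal WAT.

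Around the members, 102 other genes of these pathways had been listed, of which 100 were in the files, 57 were tested and 17 were at 0 in all libraries. In inguinal WAT against BAT none of the 57 was called by limma, where 2.2% of all tested genes were. At an unadjusted p under 0.05 there were 3, and the median difference was 0.03, the same as that of all genes. In perigonadal WAT against BAT 3 of the 57 rose and none fell, where 5.18% of all tested genes were called, with a median of 0.54 against 0.52 over all genes. In inguinal WAT against perigonadal WAT 1 of the 57 fell, where 0.703% of all tested genes were called, with a median of -0.55 against -0.50. The same shares apply to the single lists below, and nothing about the pathways is read from these counts. After scaling, 1 was higher and 2 were lower in perigonadal WAT than in BAT and none was called in the other 2 comparisons. Over all genes, scaling turned 440 higher and 24 lower calls in perigonadal WAT against BAT into 231 higher and 317 lower, 155 and 42 in inguinal WAT against BAT into 266 and 150, and 27 and 36 in inguinal WAT against perigonadal WAT into 23 and none.

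Among 9 further genes of creatine and phosphate handling, 2 were tested and none was called by limma, with at most 1 at an unadjusted p under 0.05 in a comparison. Phospho1, a phosphatase of phosphocholine and phosphoethanolamine, was at 28.6 to 33.6 FPKM in BAT, 10.52 to 29.6 in inguinal WAT and 24.4 to 33.9 in perigonadal WAT, a level above that of Alpl in every library. Its log2(FPKM + 1) difference between perigonadal WAT and BAT was -0.14 (SE 0.46) as deposited, and -0.79 after scaling, when it was called (limma, adjusted p = 0.0342, with 0.0342 to 0.987 over all alternatives). Ank, a transporter that exports pyrophosphate, was at 4.29 to 4.89 FPKM in BAT, 0.80 to 8.47 in inguinal WAT and 7.83 to 14.8 in perigonadal WAT. Ckm and Enpp1 are named after their values were seen. Ckm, the muscle creatine kinase, was at 0 in all but BAT replicate 2, where it was at 0.56 FPKM, and Enpp1, which makes pyrophosphate, was at 2.09, 0.53 and 0.31 FPKM in the inguinal and at 0 in the other libraries.

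Of 20 genes that supply arginine, glycine and methyl groups, 11 were tested and none was called by limma, with at most 4 at an unadjusted p under 0.05 in a comparison. Mat2a, which makes the methyl donor that Gamt uses, was at 7.38 to 14.1 FPKM in BAT, 11.5 to 21.8 in inguinal WAT and 18.4 to 42.0 in perigonadal WAT. Ahcyl1, a relative of the enzyme that clears the product of methylation and itself a regulator of calcium release channels, was at 29.9 to 37.8 FPKM in BAT, 15.6 to 38.9 in inguinal WAT and 40.4 to 48.3 in perigonadal WAT. Of 13 genes of ATP handling, 12 were tested and none was called by limma, with at most 2 at an unadjusted p under 0.05. The most abundant were the mitochondrial phosphate carrier Slc25a3, at 107 to 225 FPKM, and the adenine nucleotide carrier Slc25a5, at 67.8 to 142 FPKM over the 8 libraries.

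**Figure D4:**
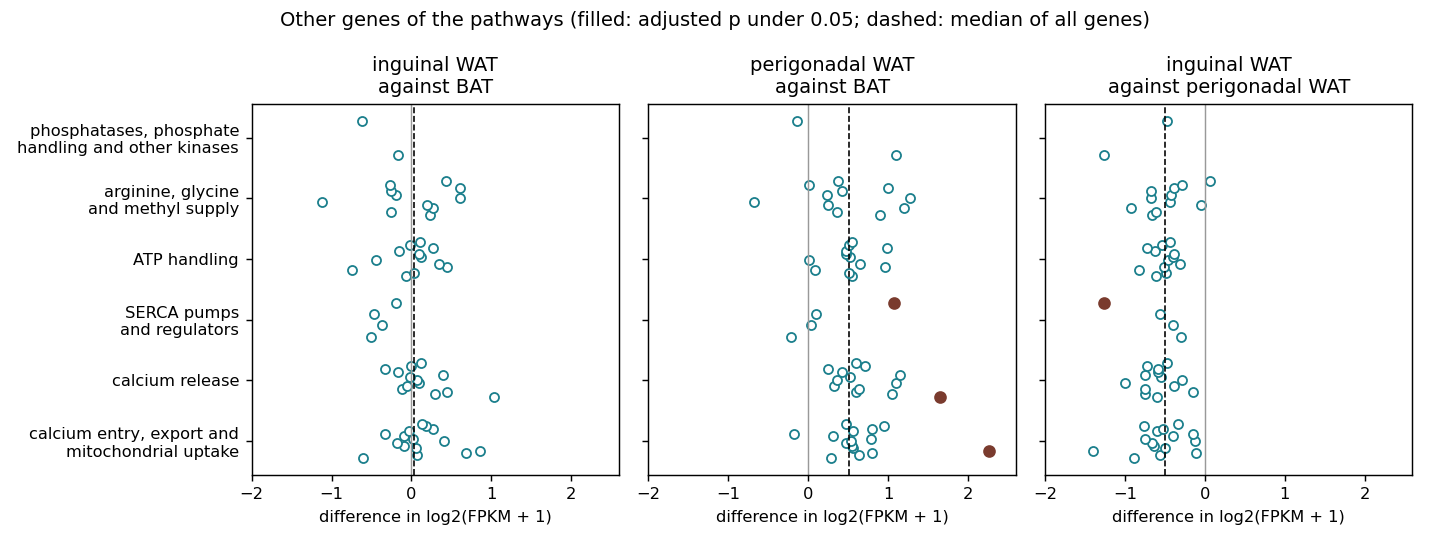
Differences in log2(FPKM + 1) (horizontal axis) of the 57 tested genes of the 6 pathway lists in the 3 comparisons, with called genes filled and a dashed line at the median of all tested genes. Most points lie around the dashed line, and the called ones are Tmem38b, Asph and Atp2b4 in perigonadal WAT against BAT and Tmem38b in inguinal WAT against perigonadal WAT.

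Of the 9 listed SERCA pumps and regulators, 8 were in the files and 4 were tested. Tmem38b, a cation channel of the endoplasmic reticulum that balances charge during calcium release, had the highest mean level of all genes in the files. It was at 3571, 2346 and 3428 FPKM in inguinal replicates 1, 2 and 3, at 8207 and 6620 in perigonadal replicates 1 and 2, and at 3128, 3175 and 4282 in BAT replicates 1, 2 and 3. On the deposited scale perigonadal WAT thus lay above both other depots without overlap. Even the lowest of these values, 2346 FPKM, was above the highest of Ucp1, 1593 FPKM. Whether all reads given to Tmem38b came from its mRNA was not tested. Tmem38b rose in perigonadal WAT against BAT by 1.08 (SE 0.23, limma adjusted p = 0.00108) and was lower in inguinal than in perigonadal WAT, at -1.27 (SE 0.23, limma adjusted p = 0.000456), on the log2(FPKM + 1) scale. After scaling these differences were 0.39 and -0.59 (limma, adjusted p = 0.643 and 0.783), and without perigonadal replicate 1 they were 0.92 and -1.11 (limma, adjusted p = 0.132 and 0.065). Over all alternatives the adjusted p of limma ran from 5.11e-08 to 0.643 against BAT and from 5.26e-10 to 0.783 between the white depots. S100a1, a calcium-binding activator of SERCA, was at 129 to 193 FPKM in BAT, 74.98 to 145 in inguinal WAT and 124 to 150 in perigonadal WAT. It was called lower in perigonadal WAT than in BAT after scaling only, at -0.89 (limma, adjusted p = 0.0331, with 0.0331 to 0.987 over all alternatives), and is named after its value was seen. Pln and Sln, the small inhibitors of SERCA from heart and muscle, were listed at 0 in all 8 libraries and are also named after their values were seen.

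Of 27 genes of calcium release, 13 were tested, and Asph was the one called. Asph, whose products include junctin, a partner of the release channel, was at 8.49 and 2.57 FPKM in perigonadal replicates 1 and 2, at 0.782, 0.471 and 1.45 in BAT replicates 1, 2 and 3, and at 4.22, 2.68 and 1.91 in inguinal replicates 1, 2 and 3. It rose in perigonadal WAT against BAT by 1.65 (SE 0.44, limma adjusted p = 0.0139) on the log2(FPKM + 1) scale. With only the most abundant transcript the difference was 0.77 (limma, adjusted p = 0.267). A pseudocount of 0.1 gave 2.38 (limma, adjusted p = 0.0585). After scaling the difference was 1.13 (limma, adjusted p = 0.0661), and without perigonadal replicate 1, BAT replicate 1 or BAT replicate 2 it was 0.94, 1.62 and 1.48 (limma, adjusted p = 0.88, 0.0603 and 0.099, with 0.000653 to 0.88 over all alternatives). Of 24 genes of calcium entry, export and mitochondrial uptake, 23 were in the files, 15 were tested and Atp2b4 was called. Atp2b4, a calcium pump of the plasma membrane, was at 8.06 and 1.78 FPKM in perigonadal replicates 1 and 2, at 0, 0 and 0.130 in BAT replicates 1, 2 and 3, and at 0.854, 1.002 and 0.844 in inguinal replicates 1, 2 and 3. Atp2b4 reached 1 FPKM only in white fat, so it entered the fit only through the depots in which it was higher. With no filter on low values neither it nor Asph was called in perigonadal WAT against BAT (limma, adjusted p = 0.0863 and 0.2). As filtered, Atp2b4 rose in perigonadal WAT against BAT by 2.27 (SE 0.43, limma adjusted p = 0.000154) as deposited and by 1.82 after scaling (limma, adjusted p = 0.0133). Without perigonadal replicate 1 the difference was 1.42 (limma, adjusted p = 0.294, with 3.5e-07 to 0.294 over all alternatives). Beside Asph and Atp2b4, the summed level of 8 endothelial markers was 7.59 to 12.6 FPKM in perigonadal WAT and 2.61 to 3.70 in BAT, and that of 8 fibroblast and progenitor markers was 21.9 to 115 against 3.39 to 11.97 FPKM. Their part in these differences was not tested.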

How the data were processed

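RNA purified from UCP1-TRAP mice was sequenced in 3 inguinal WAT, 2 perigonadal WAT and 3 BAT libraries, grouped by the tissue labels. The authors aligned reads to mm9 with TopHat and quantified transcripts with Cufflinks, per the submitters' processing notes; the sources used here give no options or versions. The deposited files give FPKM with confidence bounds for each transcript, and other values of those files were not used. FPKM was summed per gene. Fragments of genes with 1 transcript were recovered from the FPKM and its upper bound, and 84.9 to 93.3 percent of a library's low values were whole numbers to within 0.05. Other fragments are estimates.

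Genes with at least 1 FPKM in at least 2 libraries and a transcript of at least 300 nt were tested with limma 3.58.1 (R 4.3.3, variance trend, 3 groups in 1 model, two-sided, Benjamini-Hochberg within each comparison at 0.05) on log2(FPKM + 1), which understates changes of low genes. The script was tested on simulated data. The members and gene lists were chosen with earlier results of these data known. Of each pathway list, called genes are named (at most 4, by mean FPKM), or the 2 most abundant where none was called. Alternatives were 2 other pseudocounts, 2 filters, median-ratio scaling, a replicate block, other fits, the most abundant transcript and each library left out. A gene at 0 in BAT passes the filter only through white fat. For 1 list of cell markers, 6 of its 8 genes are used and the others are not reported here.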

Additional observations from a re-analysis of the deposited data

How the results depend on the processing

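Under 17 other settings, or 16 for Gamt, Slc6a8 and Alpl, which a minimum of 5 FPKM removed, 8 of the 15 differences of tested members kept their sign throughout, among them those of Ckb against BAT, which ran from -2.46 to -0.99 in inguinal WAT and from -2.35 to -1.22 in perigonadal WAT. The numbers of genes called in inguinal WAT against BAT, perigonadal WAT against BAT and inguinal against perigonadal WAT were 197, 464 and 63 as reported. They were 131, 214 and 5 with a pseudocount of 0.1, 11, 117 and 9 with no filter, 124, 307 and 32 at a minimum of 5 FPKM, and 416, 548 and 23 after scaling. A pseudocount of 5 gave 146 in the last of these, and a fit of only the groups compared gave 956 in perigonadal WAT against BAT and 37 in the last. Leaving out 1 library, where a lone perigonadal library was assumed to vary like the other groups, gave 109 to 336, 105 to 1326 and 11 to 220. Members called against BAT, 1 in each white depot, were 0 in both with a pseudocount of 0.1, no filter or scaling, and 2 in perigonadal WAT in a fit of only those groups. They were 0 to 1 and 0 to 2 with a library left out, and without inguinal replicate 3 the call in inguinal WAT was Gamt and not Ckb. Pathway genes called in perigonadal WAT against BAT, 3 as reported, were 1 with a pseudocount of 0.1, 0 with no filter, 1 at a minimum of 5 FPKM, 10 in a fit of only those groups, and 0 to 12 with a library left out. In inguinal against perigonadal WAT the 1 call became 0 with a pseudocount of 0.1, no filter, scaling or no variance trend, 2 with a pseudocount of 5, and 0 to 2 with a library left out. Causes were not tested. Whether replicate numbers pair the libraries cannot be decided from residuals of 2 or 3 libraries a group. Same-numbered inguinal and BAT residuals correlated at 0.08 to 0.126, and those with other numbers at -0.077 to -0.033. Over all depots, same-numbered pairs ran from -0.087 to 0.126 and other pairs from -0.077 to 0.087. With the replicate block 280, 418 and 88 genes were called in the 3 comparisons. Depth limits Ckmt1, Ckmt2, Gatm, Gamt and Ryr2, which rest on 17.5 fragments or fewer over all libraries.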
